A study of Mus musculus with 16 samples.

Results

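The ligands and receptors of the tumour necrosis factor (TNF) superfamily were followed in mouse liver after forced expression of FAT10 and treatment with pemafibrate. The genes were those whose mouse symbol starts with Tnfsf (ligands) or Tnfrsf (receptors) and a digit. They came to 31 of the 55416 genes listed, made up of 11 ligand genes, 19 receptor genes and 1 antisense RNA gene, Tnfsf13os. The libraries came from the livers of 16 wild-type C57BL/6J mice aged 8 weeks, 4 mice in each of 4 groups. All mice received an adenovirus through the tail vein, either Ad-FAT10, which overexpresses FAT10, or the control virus Ad-CTRL, at the same number of genome copies. After 4 days they were gavaged with pemafibrate at 1 mpk (Pema) or with its vehicle CMC, at 18 h and at 5 h before the liver was removed, and were fasted for the last 5 h. The groups were Ad-FAT10 Pema, Ad-FAT10 CMC, Ad-CTRL Pema and Ad-CTRL CMC. No liver without virus was analysed here, and the amount of vector in each liver was not measured, so that FAT10 and any difference in vector load between the viruses cannot be told apart.

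TNF superfamily ligands are mostly trimeric membrane proteins, some of which are shed, and their receptors signal through TRAF adaptors or, where they carry a cytoplasmic death domain, also through FADD and caspase-8. Several ligand and receptor pairs act between lymphocytes and antigen-presenting cells, others act on B cells, bone cells or epithelia, and decoy receptors bind ligand without passing on a death signal. In the liver, TNF and TRAIL are known for their part in hepatocyte death and inflammation. FAT10, encoded by Ubd, is a ubiquitin-like modifier whose own expression is induced by TNF and interferon gamma, and pemafibrate is an agonist of the nuclear receptor PPARα.

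Of the 31 genes, 22 had enough counts to be tested, 6 ligands and 16 receptors. The other 9, Tnfsf4, Tnfsf8, Tnfsf9, Tnfsf11, Tnfsf18, Tnfsf13os, Tnfrsf8, Tnfrsf13c and Tnfrsf17, were below the filter on low counts. Tnfsf13, Tnfsf15 and Tnfrsf25 passed that filter through Ad-FAT10 livers alone, so counts over the tested genes are descriptions and are also given without these 3. Levels are in CPM, counts relative to library size, after TMM scaling. Changes are log2 ratios ± standard error from edgeR's quasi-likelihood test on the raw counts, with p-values adjusted by the Benjamini-Hochberg method across the 14770 genes that were tested, and a gene was called higher or lower when its adjusted p was under 0.05. Every adjusted p below is from that test unless another is named. Library totals ran from 18663498 to 28898229 counts, so that a gene listed at 0 could still have been present at up to 3 counts, which is 0.104 CPM in the deepest and 0.161 CPM in the shallowest library by counting error alone.

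Ubd was read first as a check of the labels, which do not say whether the vector encodes mouse or human FAT10, so that vector and endogenous transcript cannot be told apart in its counts. It was at 546, 442, 391 and 460 CPM in Ad-FAT10 Pema livers and 110.5, 167, 339 and 330.2 CPM in Ad-FAT10 CMC livers. In Ad-CTRL livers it was at 21.6, 47.8, 26.5 and 14.2 CPM with Pema and 15.2, 8.64, 12.0 and 9.00 CPM with CMC. All 8 Ad-FAT10 livers lay above all 8 Ad-CTRL livers, and the log2 change was 4.06 ± 0.38 (adjusted p = 8.1e-07) under Pema and 4.41 ± 0.39 (adjusted p = 4.8e-07) under CMC. Ubd itself was higher with Pema than with CMC in Ad-FAT10 livers (0.96 ± 0.33, adjusted p = 0.0413; 0.0562 with DESeq2) and in Ad-CTRL livers (1.30 ± 0.36, adjusted p = 0.00945; 0.0524 without Ad-CTRL Pema replicate 2). The first of these calls was also lost when any of 7 single libraries was left out, namely replicate 1, 2 or 4 of Ad-FAT10 Pema, replicate 1 or 2 of Ad-FAT10 CMC and replicate 3 of either Ad-CTRL group, with adjusted p up to 0.12. The part of this difference in the results below was not tested.

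Livers are mixtures of cells, and in bulk RNA fewer cells of a type and less RNA per cell cannot be told apart. Markers moved in both directions in Ad-FAT10 livers. All 8 T cell markers were called higher under both treatments, and their summed level was 23.0 to 54.7 CPM in Ad-FAT10 Pema livers and 26.0 to 34.5 CPM in Ad-FAT10 CMC livers, against 10.0 to 16.1 CPM in Ad-CTRL Pema livers and 9.36 to 18.3 CPM in Ad-CTRL CMC livers. Of 8 monocyte and macrophage markers 7 were higher under both treatments, with sums of 281 to 474 CPM and 387 to 504 CPM in Ad-FAT10 Pema and CMC livers, against 162 to 257 CPM and 173 to 242 CPM in Ad-CTRL Pema and CMC livers. Neutrophil markers were higher for 6 of 8 under Pema and all 8 under CMC, with sums of 19.2 to 27.9 CPM and 41.2 to 122 CPM in Ad-FAT10 Pema and CMC livers, against 6.93 to 10.8 CPM and 8.38 to 17.2 CPM in Ad-CTRL Pema and CMC livers. NK cell markers were higher for 4 of 5 under both treatments, with sums of 8.03 to 18.8 CPM and 8.45 to 16.3 CPM in Ad-FAT10 Pema and CMC livers, against 5.11 to 9.59 CPM and 3.70 to 7.33 CPM in Ad-CTRL Pema and CMC livers. Resident macrophage markers were mostly lower, 5 of 6 under Pema and 4 of 6 under CMC with 1 higher in each. Their sums overlapped, at 171 to 355 CPM and 242 to 355 CPM in Ad-FAT10 Pema and CMC livers. In Ad-CTRL Pema and CMC livers they were 185 to 342 CPM and 259 to 379 CPM. Of 6 sinusoidal endothelial markers 3 were lower under both treatments. B cell markers were also lower, with 4 of 5 lower under Pema and all 5 lower under CMC. Their sums were 3.15 to 4.27 CPM and 2.56 to 3.07 CPM in Ad-FAT10 Pema and CMC livers, against 4.49 to 8.97 CPM and 4.99 to 9.38 CPM in Ad-CTRL Pema and CMC livers. Hepatocyte markers, which set the tissue apart, were abundant in all libraries, and 4 of the 6 were lower in Ad-FAT10 than in Ad-CTRL livers under both treatments and lower with Pema than with CMC under both viruses.

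The upstream sequences of 4 genes that the results turn on are shown here, as RefSeq gives them for GRCm38.p6 on the strand of the gene, 250 bases ending just before the annotated start. A promoter entry was found for 24 of the 31 genes, with 28 windows in all. Capitals mark matches, on either strand, to 4 motifs: the NF-kB consensus, the p53 half-site consensus, the DR1 repeat bound by PPAR and RXR (2 copies of AGGNCA with 1 base between them), and the AP-1 site TGANTCA. Overlapping matches of one motif are drawn as one stretch. Tnfsf10 is shown for its change with pemafibrate, Tnfrsf9 and Tnfrsf8 for their change with Ad-FAT10 and Tnfrsf12a for its change with both, and the 4 were chosen after their values and matches had been seen.
Tnfsf10 (chr3:27316827-27317076, plus strand): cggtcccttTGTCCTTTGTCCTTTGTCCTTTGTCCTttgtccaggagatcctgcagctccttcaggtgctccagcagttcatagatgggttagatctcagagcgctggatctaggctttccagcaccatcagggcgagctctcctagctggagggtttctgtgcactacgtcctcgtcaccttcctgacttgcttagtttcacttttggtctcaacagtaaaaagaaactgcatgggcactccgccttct
Tnfrsf9 (chr4:150927749-150927998, plus strand): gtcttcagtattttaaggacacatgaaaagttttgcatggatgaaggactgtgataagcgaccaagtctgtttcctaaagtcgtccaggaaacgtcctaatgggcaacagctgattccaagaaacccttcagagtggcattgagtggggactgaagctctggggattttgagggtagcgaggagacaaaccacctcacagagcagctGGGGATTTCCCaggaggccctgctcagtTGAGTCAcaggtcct
Tnfrsf8 (chr4:145315165-145315414, minus strand): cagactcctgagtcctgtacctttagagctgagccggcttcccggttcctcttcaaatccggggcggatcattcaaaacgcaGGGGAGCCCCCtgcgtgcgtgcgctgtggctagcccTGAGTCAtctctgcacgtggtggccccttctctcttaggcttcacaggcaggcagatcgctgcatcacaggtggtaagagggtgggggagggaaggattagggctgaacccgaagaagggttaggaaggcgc
Tnfrsf12a (chr17:23677450-23677699, minus strand): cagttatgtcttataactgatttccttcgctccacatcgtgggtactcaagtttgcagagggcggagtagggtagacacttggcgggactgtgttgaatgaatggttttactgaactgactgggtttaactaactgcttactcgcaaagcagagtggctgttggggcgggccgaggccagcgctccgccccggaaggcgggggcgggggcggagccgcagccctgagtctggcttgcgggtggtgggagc
The Tnfsf10 window holds 3 overlapping matches to the DR1 repeat, 241, 234 and 227 bases before the start, all in a run of the 7-base unit TGTCCTT. This motif was in 1 of the 28 windows and in 0.338% of all 32851 promoters searched. Tnfrsf9 has a second window in the table, upstream of its other annotated start (chr4:150919905-150920154, not printed), which holds no match to any of the 4 motifs. Where a gene had more than 1 window, the one with the most matches was printed. The Tnfrsf9 window printed here holds 2 overlapping NF-kB matches, 43 and 42 bases before the start, and an AP-1 match at 15, and the Tnfrsf8 window holds 2 overlapping NF-kB matches at 168 and 167 and an AP-1 match at 132. NF-kB matches were in 3 of the 28 windows (10.7%; Tnfrsf8, Tnfrsf9 and Tnfrsf25) and in 7.25% of all promoters, and AP-1 matches in 5 of 28 (17.9%) and in 6.75% of all promoters. The p53 half-site was in 1 of 28 (3.57%; Tnfsf13b) and in 7.13% of all. None of the 4 patterns was found in the Tnfrsf12a window. These matches describe the letters of the windows and no binding was measured.

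Per kilobase of annotated exon, receptors held the highest levels. Tnfrsf1a, the main TNF receptor with a death domain, had mean levels of 47.7 and 54.0 CPM per kb in Ad-FAT10 Pema and Ad-FAT10 CMC livers, against 34.1 and 43.0 CPM per kb in Ad-CTRL Pema and Ad-CTRL CMC livers. Tnfrsf12a (Fn14, the TWEAK receptor) had mean levels of 26.4 and 18.4 CPM per kb in Ad-FAT10 Pema and Ad-FAT10 CMC livers, against 16.1 and 6.07 CPM per kb in Ad-CTRL Pema and Ad-CTRL CMC livers. Tnfrsf1b, the TNF receptor without a death domain, stood between 10.1 and 16.5 CPM per kb in the 4 groups. The highest ligand was Tnfsf10 (TRAIL), at 3.31 and 6.36 CPM per kb in Ad-FAT10 Pema and Ad-FAT10 CMC livers, against 2.75 and 4.27 CPM per kb in Ad-CTRL Pema and Ad-CTRL CMC livers. At the low end, Tnfsf18 and Tnfrsf17 had at most 3 counts in any library.

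**Figure D1:**
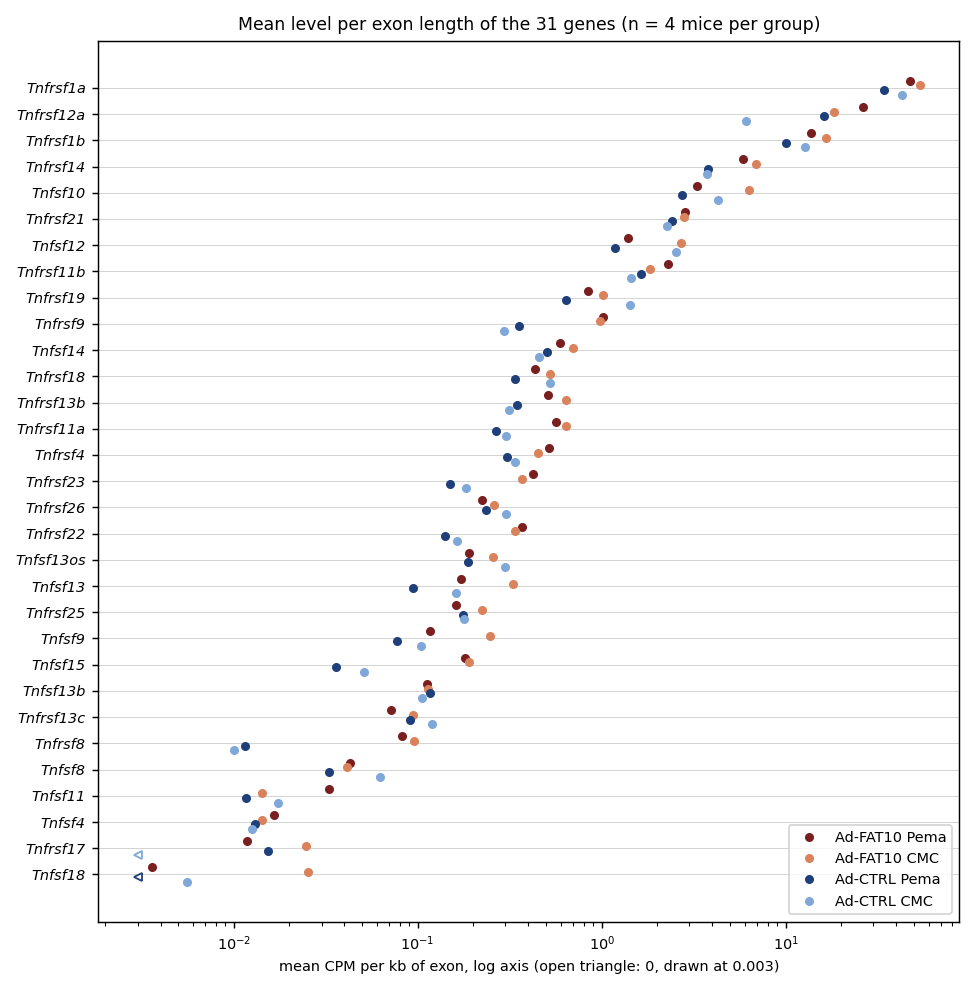
Mean level of the 31 genes in CPM per kb of exon, on a log axis, 1 point per group (4 mice each), ordered by level. Tnfrsf1a, Tnfrsf12a and Tnfrsf1b lead, the highest ligand is Tnfsf10, and open triangles mark group means of 0.

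In Ad-FAT10 against Ad-CTRL livers, every member that was called was higher. Under Pema 10 of the 22 tested genes were called higher, beside 21.2% of all tested genes called higher and 20.5% called lower. Under CMC 11 of 22 were called higher, beside 22.5% of all tested genes higher and 20.2% lower. No member was called lower in either comparison with edgeR. At an unadjusted p under 0.05, 0 members were lower under Pema and 1 under CMC, Tnfrsf19, which DESeq2 also called lower (adjusted p = 0.0427). The median log2 change over the tested members was 0.48 under Pema and 0.52 under CMC, against -0.02 and -0.01 over all tested genes. Without the 3 genes that passed the filter through Ad-FAT10 livers alone, 9 of 19 were called under Pema and 10 of 19 under CMC, with medians of 0.48 and 0.46. Groups did not overlap for 10 of the 22 under Pema and 11 of 22 under CMC, beside 36.9% and 38.2% of all tested genes. Tnfsf15, which passed the filter through Ad-FAT10 livers alone, is among them under both treatments.

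By role, 1 of 6 ligands was higher under Pema and 2 of 6 under CMC, against 9 of 16 receptors under each treatment. Over all tested genes 21.2% were called higher under Pema and 22.5% under CMC, and the ligand counts are near these shares. Median log2 changes of the ligands were 0.26 under Pema and 0.59 under CMC, and those of the receptors 0.53 and 0.42. The ligand called under Pema was Tnfsf15, which passed the filter through Ad-FAT10 livers alone. Without the 3 genes of that kind, 0 of 4 ligands were called by edgeR under Pema (0 also before adjustment) and 1 of 4 under CMC, with medians of 0.25 and 0.34, against 9 of 15 receptors under each treatment, with medians of 0.58 and 0.46. With all 6 ligands, 4 were called under CMC without Ad-CTRL Pema replicate 2. Among the 3 death domain receptors of the members, Tnfrsf1a, Tnfrsf21 and Tnfrsf25, 1 was called under each treatment, with medians of 0.25 under Pema and 0.30 under CMC. Fas, a death receptor with another symbol, is not counted here. It was called higher with Ad-FAT10 under CMC (0.47 ± 0.11, adjusted p = 0.00255) and not under Pema (-0.11 ± 0.11, adjusted p = 0.408). Of the 5 T cell costimulatory receptors 4 were tested and 2 were called under each treatment, with medians of 0.69 and 0.67. The 3 decoy receptors had the highest medians of the receptor groups with more than 1 tested gene, 1.38 under Pema with 3 called and 1.04 under CMC with 2 called. These groups hold 3 or 4 tested genes each, and no test was made of a difference between them.

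**Figure D2:**
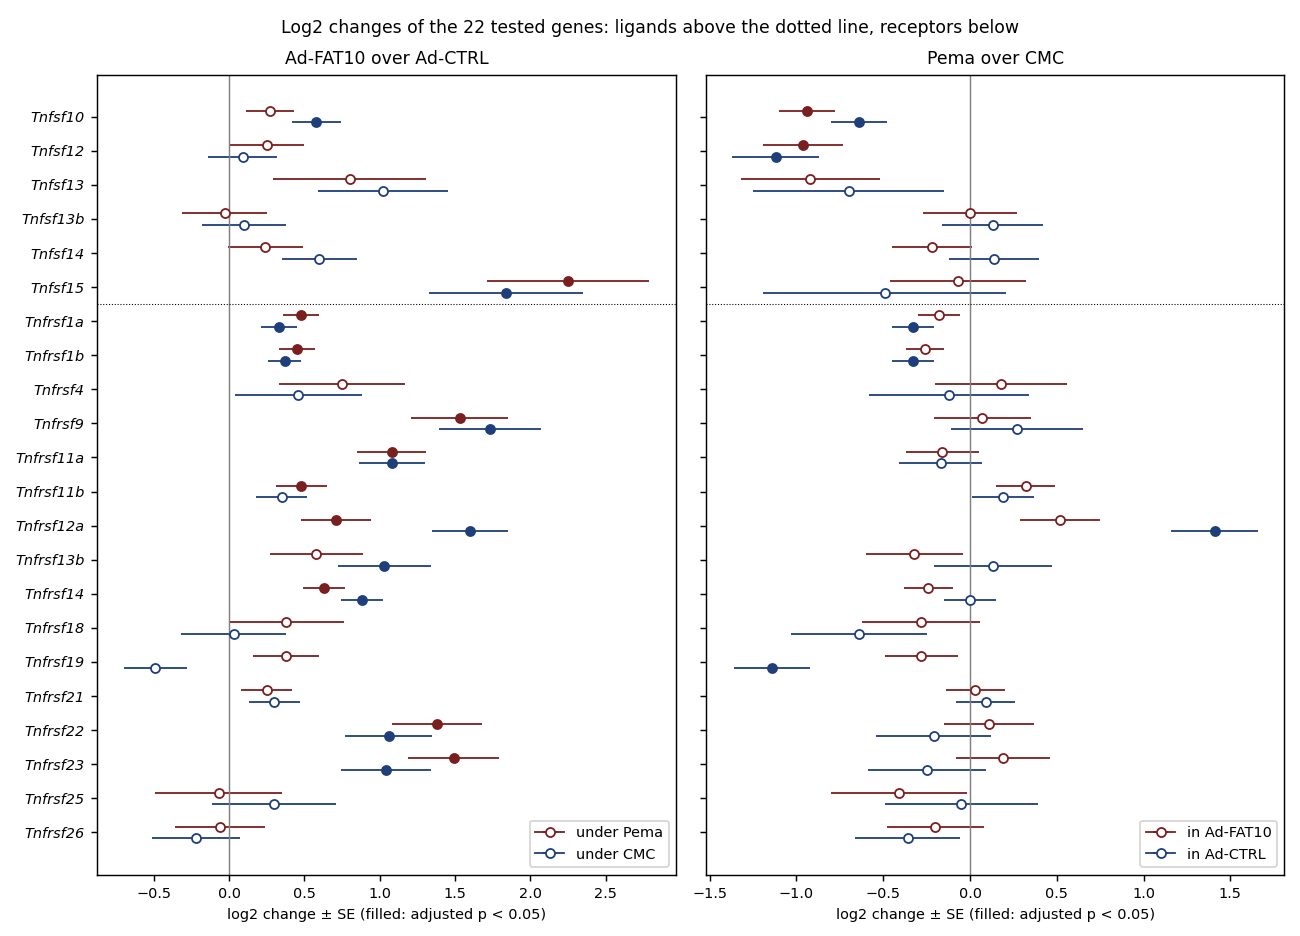
Log2 change ± SE of the 22 tested genes, Ad-FAT10 over Ad-CTRL on the left and Pema over CMC on the right, with filled points called at adjusted p under 0.05. All filled points on the left lie right of 0, and on the right Tnfrsf12a is the single filled point right of 0.

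Among the ligands, Tnfsf15 (TL1A, which costimulates T cells through Tnfrsf25) was read at low levels. It was at 0.502, 0.572, 1.04 and 0.293 CPM in Ad-FAT10 Pema livers and 0.642, 0.421, 0.759 and 0.721 CPM in Ad-FAT10 CMC livers. The levels in Ad-CTRL livers were 0.156, 0, 0.150 and 0.176 CPM with Pema and 0.0587, 0.277, 0.0924 and 0.257 CPM with CMC. The groups did not overlap under either treatment, although no Ad-CTRL liver had more than 6 counts. Tnfsf15 reached the level of 0.422 CPM that the filter asks for in 7 Ad-FAT10 and 0 Ad-CTRL libraries, so its fitted log2 changes of 2.25 ± 0.54 under Pema and 1.84 ± 0.51 under CMC are descriptions. With no filter on low counts, edgeR gave adjusted p of 0.000502 under Pema and 0.0032 under CMC. Its receptor Tnfrsf25 (DR3) was at 0.116 to 0.593 CPM in Ad-FAT10 Pema livers and 0.253 to 0.721 CPM in Ad-FAT10 CMC livers, against 0.249 to 0.534 CPM in Ad-CTRL Pema livers and 0.235 to 0.508 CPM in Ad-CTRL CMC livers, and was not called in any comparison.

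Tnfsf10 (TRAIL), a ligand that can trigger apoptosis, moved with both the virus and the drug. It was at 15.2, 19.3, 19.4 and 15.7 CPM in Ad-FAT10 Pema livers and 38.9, 24.5, 38.3 and 32.2 CPM in Ad-FAT10 CMC livers. In Ad-CTRL livers the levels were 17.7, 17.1, 12.3 and 10.8 CPM with Pema and 23.6, 23.6, 21.9 and 20.8 CPM with CMC. Under CMC all 4 Ad-FAT10 livers lay above all 4 Ad-CTRL livers and Tnfsf10 was higher by 0.58 ± 0.16 (adjusted p = 0.00689). Under Pema the 2 viruses overlapped, with a change of 0.27 ± 0.16 (adjusted p = 0.186). With Pema, Tnfsf10 fell by 0.94 in Ad-FAT10 livers (SE 0.16, adjusted p = 0.000237) and by 0.64 in Ad-CTRL livers (SE 0.16, adjusted p = 0.00558), and the Pema and CMC livers did not overlap under either virus. The difference between the 2 drug responses was -0.30 ± 0.22 (adjusted p = 0.668), with an unadjusted 95% interval of -0.77 to 0.17. The window upstream of this gene, printed above, is the one of the 28 with DR1 matches, all in a run of a short repeated unit. Whether these matches have a part in the change with Pema was not tested.

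Tnfsf12 (TWEAK, the ligand of Tnfrsf12a) was lower with the drug under both viruses. It was at 2.08, 2.10, 2.40 and 1.85 CPM in Ad-FAT10 Pema livers, against 3.35, 4.13, 4.30 and 4.64 CPM in Ad-FAT10 CMC livers. Ad-CTRL Pema livers had 1.61, 2.30, 1.95 and 1.28 CPM, against 2.87, 3.19, 3.05 and 6.33 CPM in Ad-CTRL CMC livers. Pema and CMC livers did not overlap under either virus, and Ad-CTRL CMC replicate 4 stood well above the rest of its group. Tnfsf12 fell by 0.96 on the log2 scale in Ad-FAT10 livers (SE 0.23, adjusted p = 0.00468) and by 1.12 in Ad-CTRL livers (SE 0.25, adjusted p = 0.00191). Between the viruses it was not called, with changes of 0.25 ± 0.25 under Pema and 0.09 ± 0.23 under CMC. Tnfsf12 shares exons on the same strand with the fusion gene Tnfsfm13, and the counts do not show how reads of the shared exons were assigned.

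The 3 other tested ligands were not called in any comparison. Tnfsf13 (APRIL, a B cell and plasma cell survival factor) was at 0.229 to 0.358 CPM in Ad-FAT10 Pema livers and 0.446 to 0.642 CPM in Ad-FAT10 CMC livers, against 0 to 0.264 CPM in Ad-CTRL Pema livers and 0.0924 to 0.462 CPM in Ad-CTRL CMC livers. Its Pema and CMC livers did not overlap under Ad-FAT10 (-0.92 ± 0.40, adjusted p = 0.102; 0.0348 with a fit of these 2 groups alone), and its exons overlap Tnfsfm13 and, on the other strand, Tnfsf13os. Tnfsf13 reached the filter's level of 0.422 CPM in 4 Ad-FAT10 and 1 Ad-CTRL libraries, so its changes are descriptions. Tnfsf13b (BAFF, a B cell survival factor) lay between 0.470 and 1.15 CPM over all 16 livers. Tnfsf14 (LIGHT, a ligand of Tnfrsf14 and the lymphotoxin beta receptor) was at 1.15 to 1.55 CPM in Ad-FAT10 CMC livers, against 0.669 to 0.970 CPM in Ad-CTRL CMC livers, with no overlap (0.60 ± 0.25, adjusted p = 0.061; 0.0477 with a fit of these 2 groups alone). Both Tnfsf13 and Tnfsf14 were called under CMC without Ad-CTRL Pema replicate 2, Tnfsf13 also without Ad-CTRL CMC replicate 2 and Tnfsf14 also without Ad-FAT10 Pema replicate 3.

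Among the receptors, Tnfrsf12a (Fn14), which is known to be induced in injured liver and on proliferating progenitors, was high with either the virus or the drug. It was at 38.4, 59.5, 65.2 and 40.9 CPM in Ad-FAT10 Pema livers and 21.4, 26.4, 51.3 and 43.1 CPM in Ad-FAT10 CMC livers. Ad-CTRL Pema livers had 32.3, 29.4, 34.2 and 28.5 CPM, and Ad-CTRL CMC livers 13.3, 14.5, 10.8 and 8.28 CPM. The Ad-CTRL CMC livers lay below all 12 others. With Ad-FAT10 it was higher by 0.71 ± 0.23 under Pema (adjusted p = 0.0205) and by 1.60 ± 0.25 under CMC (adjusted p = 7.4e-05). The call under Pema was lost when replicate 4 of Ad-CTRL Pema or replicate 2 or 3 of Ad-FAT10 Pema was left out, with adjusted p up to 0.072. With Pema it was higher by 1.41 ± 0.25 in Ad-CTRL livers (adjusted p = 0.000275), whereas in Ad-FAT10 livers the groups overlapped and the change was 0.52 ± 0.23 (adjusted p = 0.116). The last change was called without Ad-FAT10 CMC replicate 3 and with no filter on low counts (adjusted p = 0.0171). The difference between the 2 drug responses was -0.89 ± 0.34, with an unadjusted 95% interval of -1.60 to -0.18 (adjusted p = 0.354).

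Tnfrsf9 (CD137) and Tnfrsf14 (HVEM) were the 2 T cell costimulatory receptors called. Tnfrsf9, which marks activated T and NK cells, was at 1.54, 2.82, 4.54 and 2.15 CPM in Ad-FAT10 Pema livers and 2.94, 1.95, 3.14 and 2.58 CPM in Ad-FAT10 CMC livers. The levels in Ad-CTRL livers were 1.04, 1.44, 0.748 and 0.661 CPM with Pema and 1.17, 0.739, 0.739 and 0.566 CPM with CMC. All 8 Ad-FAT10 livers lay above all 8 Ad-CTRL livers, with changes of 1.53 ± 0.32 under Pema (adjusted p = 0.00115) and 1.73 ± 0.34 under CMC (adjusted p = 0.000563). The T cell and NK cell markers given above moved the same way, and their part in this difference was not tested.

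Tnfrsf14, found on lymphocytes, myeloid cells and epithelia, was at 7.30, 9.12, 10.0 and 7.19 CPM in Ad-FAT10 Pema livers and 12.1, 8.68, 10.1 and 9.03 CPM in Ad-FAT10 CMC livers. It was at 5.24, 5.98, 5.14 and 5.33 CPM in Ad-CTRL Pema livers and 4.75, 5.91, 6.10 and 4.84 CPM in Ad-CTRL CMC livers. Again all Ad-FAT10 livers lay above all Ad-CTRL livers, and the changes were 0.63 ± 0.14 under Pema (adjusted p = 0.00176) and 0.88 ± 0.14 under CMC (adjusted p = 0.000115). Tnfrsf4 (OX40) ranged from 0.154 to 0.867 CPM over the 16 livers and was not called, although its Ad-FAT10 Pema livers (0.656 to 0.781 CPM) did not overlap its Ad-CTRL Pema livers (0.214 to 0.622 CPM). Tnfrsf18 (GITR), another receptor of activated and regulatory T cells, ranged from 0.176 to 1.17 CPM and was not called in any comparison with all libraries, and was called for Pema against CMC in Ad-CTRL livers without Ad-CTRL Pema replicate 2.

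Tnfrsf8 (CD30), the fifth receptor of this group, was below the filter. It had 3, 9, 15 and 7 counts in Ad-FAT10 Pema livers and 5, 3, 12 and 16 counts in Ad-FAT10 CMC livers, against 1, 2, 0 and 0 counts in Ad-CTRL Pema livers and 0, 2, 1 and 0 counts in Ad-CTRL CMC livers. Every Ad-FAT10 liver had more counts than any Ad-CTRL liver. The ratio of summed counts, corrected for depth, was 7.85 under Pema (34 against 3 counts, exact 95% interval 2.47 to 39.9) and 9.14 under CMC (36 against 3 counts, exact 95% interval 2.89 to 46.4). These intervals cover counting error only.

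The ligands below the filter include partners of these receptors. Tnfsf9, the ligand of Tnfrsf9, had 3, 3, 5 and 7 counts in Ad-FAT10 Pema livers and 5, 7, 10 and 12 counts in Ad-FAT10 CMC livers, against 2 counts in each Ad-CTRL Pema liver and 1, 4, 3 and 3 counts in Ad-CTRL CMC livers. The viruses did not overlap within either treatment after scaling, and with no filter Tnfsf9 was not called (adjusted p = 0.562 under Pema and 0.101 under CMC). Tnfsf4, the ligand of OX40, ranged from 0 to 0.0924 CPM and Tnfsf8, the ligand of CD30, from 0.0381 to 0.324 CPM over the 16 livers. Tnfsf13os, the antisense RNA, ranged from 0.116 to 0.462 CPM. These genes were not called in any comparison with no filter.

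Tnfrsf11a (RANK), the receptor of the osteoclast and dendritic cell factor RANKL, was higher with Ad-FAT10. It was at 2.86, 2.78, 5.16 and 2.76 CPM in Ad-FAT10 Pema livers and 3.85, 4.17, 3.11 and 4.15 CPM in Ad-FAT10 CMC livers. The levels were 1.97, 1.34, 1.25 and 1.85 CPM in Ad-CTRL Pema livers and 1.76, 1.62, 2.17 and 1.65 CPM in Ad-CTRL CMC livers. The viruses did not overlap, and the change was 1.08 ± 0.23 under Pema (adjusted p = 0.00102) and 1.08 ± 0.22 under CMC (adjusted p = 0.000959). Its ligand Tnfsf11 was below the filter, at 0 to 0.148 CPM over the 16 livers.

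Tnfrsf11b (osteoprotegerin), the soluble decoy for RANKL, was at 5.33, 6.41, 8.60 and 5.53 CPM in Ad-FAT10 Pema livers, against 5.60, 4.06, 4.19 and 4.67 CPM in Ad-CTRL Pema livers. These groups overlapped, and the change of 0.48 ± 0.17 was called (adjusted p = 0.0288). The call was lost in a fit of the 2 groups alone (adjusted p = 0.0531). It was also lost without replicate 2, 3 or 4 of Ad-CTRL Pema and without replicate 2 or 3 of Ad-FAT10 Pema, and without the last of these the change was 0.31 (adjusted p = 0.13). Under CMC the change was 0.35 ± 0.17 (adjusted p = 0.11; called without Ad-CTRL CMC replicate 2).

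Tnfrsf22 and Tnfrsf23, neighbouring decoy receptors described in the mouse, were both higher with Ad-FAT10. Tnfrsf22 was at 1.54, 1.87, 1.60 and 1.24 CPM in Ad-FAT10 Pema livers and 1.05, 1.38, 0.939 and 2.37 CPM in Ad-FAT10 CMC livers. In Ad-CTRL livers the levels were 0.467, 0.641, 0.648 and 0.617 CPM with Pema and 0.704, 0.508, 0.924 and 0.617 CPM with CMC. The viruses did not overlap within either treatment, and the changes were 1.38 ± 0.30 under Pema (adjusted p = 0.00124) and 1.06 ± 0.29 under CMC (adjusted p = 0.00745). The change under CMC was 0.70 without Ad-FAT10 CMC replicate 4, the highest library.

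Tnfrsf23 was at 1.47, 1.68, 2.02 and 1.53 CPM in Ad-FAT10 Pema livers and 1.19, 0.994, 1.37 and 2.27 CPM in Ad-FAT10 CMC livers. It was at 0.830, 0.321, 0.698 and 0.529 CPM in Ad-CTRL Pema livers and 0.997, 0.508, 0.601 and 0.772 CPM in Ad-CTRL CMC livers. The viruses did not overlap under Pema (1.49 ± 0.30, adjusted p = 0.000887) and overlapped by 1 liver under CMC (1.04 ± 0.30, adjusted p = 0.0102). Without Ad-FAT10 CMC replicate 4 the change under CMC was 0.74 and was not called (adjusted p = 0.055). The paralog Tnfrsf26 lay between 0.399 and 1.15 CPM over the 16 livers and was not called in any comparison. Tnfrsf22, Tnfrsf23 and Tnfrsf26 are close paralogs, and Tnfrsf23 and Tnfrsf26 overlap E230032D23Rik on the other strand, so their counts carry an uncertainty that these files do not resolve.

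Tnfrsf13b (TACI), the B lineage receptor of BAFF and APRIL, was called under CMC alone. It was at 0.656, 1.30, 2.17 and 1.66 CPM in Ad-FAT10 Pema livers and 1.51, 1.95, 1.99 and 1.82 CPM in Ad-FAT10 CMC livers. The levels were 1.45, 1.07, 0.698 and 0.705 CPM in Ad-CTRL Pema livers and 0.997, 1.06, 0.693 and 0.823 CPM in Ad-CTRL CMC livers. The viruses did not overlap under CMC (1.03 ± 0.31, adjusted p = 0.0128) and overlapped under Pema (0.58 ± 0.31, adjusted p = 0.138; called without Ad-FAT10 Pema replicate 1). The difference between these changes was -0.44 ± 0.44 (adjusted p = 0.768), and the B cell markers given above were lower with Ad-FAT10. Of 2 tested plasma cell markers, 1 was higher under Pema and 0 under CMC, and 0 were lower. Summed plasma cell markers were at 4.48 to 25.7 CPM and 5.67 to 16.3 CPM in Ad-FAT10 Pema and CMC livers. Ad-CTRL Pema and CMC livers had 3.01 to 5.29 CPM and 6.51 to 14.6 CPM. The part of these cells in the Tnfrsf13b change was not tested. Tnfrsf13c, the other main BAFF receptor of B cells, was below the filter, at 0.0499 to 0.462 CPM.

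The TNF receptors had small changes at high levels. Tnfrsf1a was at 110.5, 135, 133 and 117 CPM in Ad-FAT10 Pema livers and 134, 136, 145 and 145 CPM in Ad-FAT10 CMC livers. Ad-CTRL Pema livers had 73.4, 110.4, 90.5 and 79.3 CPM and Ad-CTRL CMC livers 118, 92.4, 109 and 126 CPM. The viruses did not overlap within either treatment, under Pema by a margin of less than 1 CPM. The change with Ad-FAT10 was 0.48 ± 0.12 under Pema (adjusted p = 0.00361) and 0.33 ± 0.12 under CMC (adjusted p = 0.034). The call under CMC was lost with DESeq2's size factors (adjusted p = 0.0513) and without Ad-CTRL CMC replicate 2 or 3 or Ad-FAT10 CMC replicate 2, 3 or 4, with adjusted p up to 0.119.

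Tnfrsf1b was at 45.7, 49.8, 58.0 and 57.0 CPM in Ad-FAT10 Pema livers and 62.3, 50.1, 66.1 and 72.9 CPM in Ad-FAT10 CMC livers. It was at 35.6, 39.3, 39.3 and 40.0 CPM in Ad-CTRL Pema livers and 51.4, 41.0, 47.0 and 54.8 CPM in Ad-CTRL CMC livers. The viruses were apart under Pema (0.45 ± 0.12, adjusted p = 0.0045) and overlapped under CMC (0.37 ± 0.11, adjusted p = 0.014), where the call was lost without Ad-CTRL CMC replicate 2 or Ad-FAT10 CMC replicate 4 (adjusted p up to 0.0587). Tnfrsf21 (DR6), the remaining death domain receptor among the members, lay between 7.72 and 17.4 CPM. It was not called, with changes of 0.25 ± 0.17 under Pema and 0.30 ± 0.17 under CMC, and its groups did not overlap under CMC (adjusted p = 0.157; 0.0333 with a fit of these 2 groups alone). The change under CMC was called without Ad-FAT10 Pema replicate 3, and that under Pema without Ad-FAT10 Pema replicate 1.

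**Figure D3:**
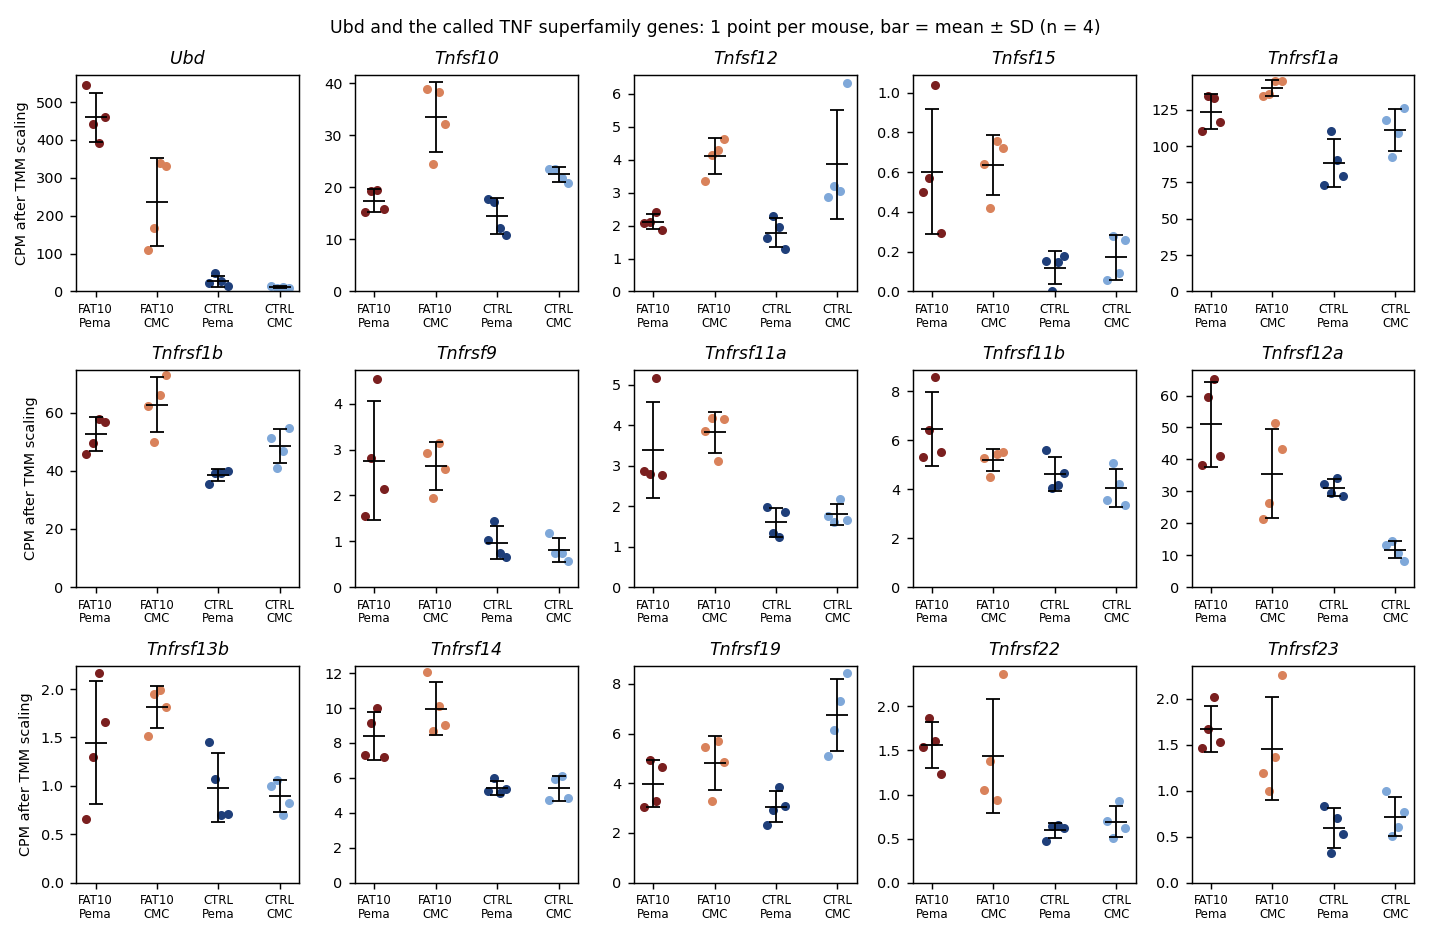
CPM after TMM scaling of Ubd and the 14 TNF superfamily genes called in at least 1 comparison, 1 point per mouse, with bars for mean ± SD of 4 mice. Ad-FAT10 and Ad-CTRL livers separate for Tnfsf15, Tnfrsf9, Tnfrsf11a and Tnfrsf14, and for Tnfrsf12a the Ad-CTRL CMC livers lie below all others.

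With Pema against CMC, fewer members were called. In Ad-FAT10 livers 0 of 22 were higher and 2 lower, beside 12.9% of all tested genes higher and 12.5% lower. In Ad-CTRL livers 1 was higher and 5 lower, beside 16.2% higher and 14.4% lower. The median log2 change of the 22 was -0.19 under each virus, against -0.01 over all tested genes. Without the 3 genes that passed the filter through Ad-FAT10 livers alone, 0 of 19 were higher and 2 lower in Ad-FAT10 livers. In Ad-CTRL livers 1 of the 19 was higher and 5 lower, and the medians were -0.18 and -0.17. Groups did not overlap for 3 of 22 in Ad-FAT10 livers and 5 of 22 in Ad-CTRL livers, beside 25.4% and 30.6% of all tested genes. Tnfsf13 is among the 3. It passed the filter through Ad-FAT10 CMC livers, where it is higher, so its separation is a description. The 2 called in Ad-FAT10 livers were the ligands Tnfsf10 and Tnfsf12, both of which were also lower in Ad-CTRL livers.

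By role, 2 of 6 ligands were lower with Pema under each virus, with medians of -0.57 in Ad-FAT10 livers and -0.56 in Ad-CTRL livers. Without Tnfsf13 and Tnfsf15, which passed the filter through Ad-FAT10 livers alone, 2 of 4 were lower under each virus. Their medians were then -0.58 in Ad-FAT10 livers and -0.25 in Ad-CTRL livers. Over all tested genes 12.9% were called higher and 12.5% lower in Ad-FAT10 livers, and 16.2% higher and 14.4% lower in Ad-CTRL livers. Of 16 receptors, edgeR and DESeq2 called 0 in Ad-FAT10 livers, where 2 (Tnfrsf12a and Tnfrsf1b) had an unadjusted p under 0.05 and 1 was called with no filter on low counts. Without Ad-FAT10 CMC replicate 2 the call was made for Tnfrsf1b, and without Ad-FAT10 CMC replicate 3 for Tnfrsf12a. In Ad-CTRL livers 1 receptor was higher and 3 were lower. The receptor medians were -0.17 in Ad-FAT10 livers and -0.14 in Ad-CTRL livers, and -0.16 and -0.17 without Tnfrsf25. Of the 3 death domain receptors among the members, 0 were called in Ad-FAT10 livers (0 also at an unadjusted p under 0.05 in edgeR) and 1 was lower in Ad-CTRL livers. Fas, a death receptor with another symbol, is not counted here and was higher with Pema under both viruses, as given below. Of the 4 tested T cell costimulators 0 were called under either virus, in edgeR also before adjustment. DESeq2 called the same number of members in these 2 comparisons, 2 in Ad-FAT10 livers and 6 in Ad-CTRL livers.

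The receptor that fell most with Pema was Tnfrsf19 (TROY), known as a Wnt target in the intestine, and it did so in Ad-CTRL livers. It was at 3.05, 4.92, 3.29 and 4.65 CPM in Ad-FAT10 Pema livers, against 5.46, 3.29, 5.71 and 4.84 CPM in Ad-FAT10 CMC livers. Ad-CTRL Pema livers had 2.33, 2.94, 3.84 and 3.08 CPM, against 5.10, 6.14, 7.30 and 8.44 CPM in Ad-CTRL CMC livers. The Ad-CTRL groups were apart and Tnfrsf19 fell by 1.14 on the log2 scale (SE 0.22, adjusted p = 0.000549), whereas the Ad-FAT10 groups overlapped (-0.28 ± 0.21, adjusted p = 0.374). The difference between these responses was 0.87 ± 0.30, with an unadjusted 95% interval of 0.24 to 1.5 (adjusted p = 0.301).

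Tnfrsf1a and Tnfrsf1b were both called lower with Pema in Ad-CTRL livers, each with a log2 change of -0.33 ± 0.12 (adjusted p = 0.0431 for Tnfrsf1a and 0.0358 for Tnfrsf1b). Their levels are given above, and Pema and CMC livers overlapped for Tnfrsf1a and not for Tnfrsf1b. The Tnfrsf1a call was lost in a fit of these 2 groups alone (adjusted p = 0.0698) and when any of 9 single libraries was left out, namely replicates 1, 3 and 4 of both Ad-CTRL groups, replicates 3 and 4 of Ad-FAT10 CMC and replicate 4 of Ad-FAT10 Pema. The Tnfrsf1b call was lost without Ad-CTRL CMC replicate 1, 3 or 4 or any of the 4 Ad-CTRL Pema libraries. Adjusted p reached 0.135 for Tnfrsf1a and 0.116 for Tnfrsf1b. In Ad-FAT10 livers the changes were -0.18 ± 0.12 for Tnfrsf1a and -0.26 ± 0.11 for Tnfrsf1b, neither called.

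For the interaction, which asks whether the drug response differed between the viruses, 0 of the 22 members were called by edgeR, beside 0.156% of all tested genes (0.0271% higher and 0.129% lower). Tnfrsf12a and Tnfrsf19, described above, were the 2 members with an unadjusted p under 0.05. DESeq2 also called 0 members.

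The rest of the pathway was read from a list of 35 genes, 15 ligands and receptors with other symbols and 20 signalling or shedding genes, of which 31 were tested. In Ad-FAT10 against Ad-CTRL livers 13 were higher and 4 lower under Pema, beside 21.2% of all tested genes higher and 20.5% lower. Under CMC 15 were higher and 2 lower, beside 22.5% higher and 20.2% lower. Of the 11 tested ligands and receptors, 7 were higher and 2 lower under Pema and 7 higher and 1 lower under CMC. The counts under Pema include Fasl, called higher there (1.27 ± 0.42, adjusted p = 0.0219). Fasl passed the filter on low counts through Ad-FAT10 livers alone, so its call is a description. Of the 20 signalling genes, 6 were higher and 2 lower under Pema and 8 higher and 1 lower under CMC. In either direction these were 8 and 9 genes, near the 41.7% and 42.6% of all tested genes called. Under Pema the number called among the 31 was 10 without Ad-CTRL Pema replicate 4 and 11 without Ad-FAT10 Pema replicate 3.

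Eda2r, the receptor of ectodysplasin A2 and a known p53 target, was the gene of this list with the smallest p in both comparisons. It was at 13.2, 8.28, 9.97 and 12.3 CPM in Ad-FAT10 Pema livers and 8.39, 13.0, 9.65 and 14.4 CPM in Ad-FAT10 CMC livers. The levels in Ad-CTRL livers were 1.25, 0.534, 0.748 and 0.837 CPM with Pema and 1.11, 1.06, 1.11 and 1.34 CPM with CMC. The viruses were far apart, with changes of 3.69 ± 0.24 under Pema (adjusted p = 3.93e-08) and 3.30 ± 0.23 under CMC (adjusted p = 5.16e-08). Also higher were Adam17, the protease that sheds TNF and its receptors (0.69 ± 0.09 under Pema and 0.92 ± 0.09 under CMC), and Traf3, an adaptor that restrains the alternative NF-kB pathway (0.55 ± 0.11 and 0.73 ± 0.11). The receptors Relt (1.26 ± 0.29 and 1.67 ± 0.31) and Cd27, a T cell costimulator (1.13 ± 0.26 and 1.32 ± 0.28), rose as well, each with an adjusted p under 0.05 in both comparisons.

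Tnf itself was at 4.48, 2.86, 4.10 and 2.76 CPM in Ad-FAT10 Pema livers and 5.82, 3.59, 7.59 and 4.36 CPM in Ad-FAT10 CMC livers. In Ad-CTRL Pema livers it was at 2.02, 2.08, 2.05 and 1.19 CPM and in Ad-CTRL CMC livers at 2.112, 1.66, 1.71 and 1.39 CPM. All Ad-FAT10 livers were above all Ad-CTRL livers (0.96 ± 0.25, adjusted p = 0.0054 under Pema; 1.64 ± 0.25, adjusted p = 7.26e-05 under CMC). Tnfaip3 (A20), a feedback inhibitor of NF-kB, was higher with Ad-FAT10 by 0.88 ± 0.19 under Pema (adjusted p = 0.00125) and 1.70 ± 0.19 under CMC (adjusted p = 3.53e-06). Ltbr, the lymphotoxin beta receptor, was lower with Ad-FAT10 under CMC (-0.49 ± 0.10, adjusted p = 0.000691) and under Pema (-0.25 ± 0.10, adjusted p = 0.049). The receptor Ngfr was lower under Pema (-0.71 ± 0.19, adjusted p = 0.00595) and not called under CMC (-0.46 ± 0.19, adjusted p = 0.0565). Its groups did not overlap under either treatment. Under Pema the adaptor Traf6 (-0.40 ± 0.09, adjusted p = 0.0025) and the caspase-8 inhibitor Cflar (-0.38 ± 0.09, adjusted p = 0.00348) were also lower.

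With Pema against CMC, 3 of the 31 were higher and 6 lower in Ad-FAT10 livers, and 4 higher and 5 lower in Ad-CTRL livers, close to the 25.4% and 30.6% of all tested genes called in either direction. In Ad-CTRL livers the number called was 5 without Ad-CTRL Pema replicate 3. The largest rises were those of Fas, a death receptor, and Casp8, the caspase it activates. Fas was at 51.3, 44.0, 44.6 and 44.4 CPM in Ad-FAT10 Pema livers, against 29.8, 25.9, 31.6 and 25.03 CPM in Ad-FAT10 CMC livers. In Ad-CTRL livers it was at 48.1, 57.1, 50.03 and 44.5 CPM with Pema, against 24.2, 19.4, 20.3 and 17.2 CPM with CMC. The treatments did not overlap, and Fas rose by 0.72 ± 0.11 in Ad-FAT10 livers (adjusted p = 9.4e-05) and by 1.30 ± 0.11 in Ad-CTRL livers (adjusted p = 8.04e-08).

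Casp8 averaged 98.8 ± 13.5 CPM in Ad-FAT10 Pema livers, against 46.6 ± 4.71 CPM in Ad-FAT10 CMC livers, and 116 ± 6.75 CPM in Ad-CTRL Pema livers, against 48.6 ± 9.95 CPM in Ad-CTRL CMC livers (SD, n = 4 each). It rose by 1.08 ± 0.13 in Ad-FAT10 livers (adjusted p = 6.78e-06) and by 1.25 ± 0.13 in Ad-CTRL livers (adjusted p = 8.17e-07). Birc3 and Birc2, ubiquitin ligases that protect from death signalling, fell by 0.51 and 0.37 in Ad-FAT10 livers (adjusted p = 0.00205 for Birc3 and 0.0108 for Birc2) and by 0.41 and 0.34 in Ad-CTRL livers (adjusted p = 0.00942 for Birc3 and 0.0165 for Birc2). The Birc2 call in Ad-CTRL livers was lost without Ad-CTRL CMC replicate 2 or Ad-CTRL Pema replicate 3 (adjusted p up to 0.0662).

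In Ad-FAT10 livers the deubiquitinase Cyld (-0.50 ± 0.08, adjusted p = 0.00021), Tnfaip3 (-0.80 ± 0.18, adjusted p = 0.00282) and Cflar (-0.36 ± 0.09, adjusted p = 0.00818) were also lower with Pema. Rbck1, a subunit of the linear ubiquitin ligase, was higher there (0.31 ± 0.10, adjusted p = 0.0256), a call lost without replicate 1 of Ad-FAT10 CMC or replicate 1, 2 or 4 of Ad-FAT10 Pema (adjusted p up to 0.0676). In the same livers all 8 neutrophil markers were lower with Pema, with sums of 19.2 to 27.9 CPM in Ad-FAT10 Pema livers, against 41.2 to 122 CPM in Ad-FAT10 CMC livers, and their part in these changes was not tested. In Ad-CTRL livers the adaptor Tradd (-0.54 ± 0.11, adjusted p = 0.000936), Ltbr (-0.42 ± 0.10, adjusted p = 0.00307) and, as in Ad-FAT10 livers, Cyld (-0.24 ± 0.08, adjusted p = 0.0347) were lower with Pema. Traf6 (0.31 ± 0.10, adjusted p = 0.0197) and the kinase gene Ripk1 (0.28 ± 0.09, adjusted p = 0.0211) were higher there. The Traf6 call was lost without replicate 3 or 4 of either Ad-CTRL group, and the Ripk1 call without Ad-CTRL CMC replicate 4 or Ad-CTRL Pema replicate 3, and with no filter on low counts the adjusted p was 0.0608 for Traf6 and 0.0865 for Ripk1.

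For the interaction, edgeR and DESeq2 called 0 of the 31, and 6 had an unadjusted p under 0.05 in edgeR. The smallest p were those of Fas (-0.59 ± 0.15, adjusted p = 0.169), Traf6 (-0.41 ± 0.13, adjusted p = 0.264) and Tnfaip3 (-0.82 ± 0.27, adjusted p = 0.265).

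**Figure D4:**
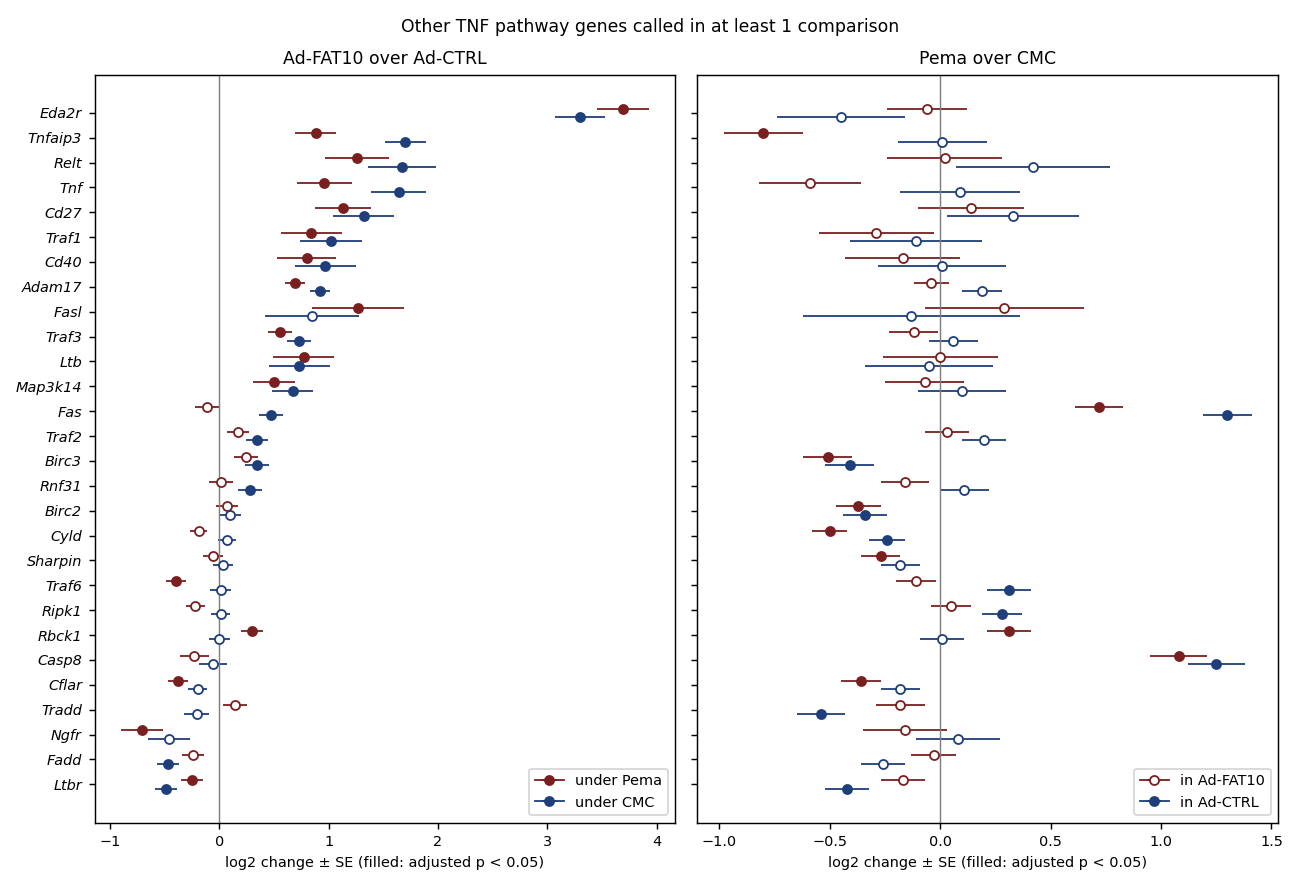
Log2 change ± SE of the other TNF pathway genes called in at least 1 comparison, Ad-FAT10 over Ad-CTRL on the left and Pema over CMC on the right, with filled points called at adjusted p under 0.05. Eda2r stands farthest right on the left panel, and Fas and Casp8 farthest right on the right panel.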

How the data were processed

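RNA from the livers of 16 mice was sequenced on DNBSEQ from poly(A)-selected, dUTP strand-marked libraries, per the labels' protocols. As deposited, each mouse has 1 file of raw, unscaled counts by Ensembl gene identifier. GRCm39 is the build in the submitters' processing notes, which also list STAR 2.7.6 and DESeq2 (2.11.40.6, 1.36.0). How reads were counted, with which annotation and strand setting, was not given in the sources used here. Overlapping genes, also on opposite strands, and close paralogs are therefore uncertain. Symbols, exon lengths and the exon overlaps between genes came from GENCODE M21 (GRCm38), which matched 52083 of 55416 identifiers (94.0%). The coordinates printed here were not taken from it. Promoter sequences are RefSeq's for GRCm38.p6.

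The tests used edgeR 4.0.16 under R 4.3.3. After filterByExpr, which left 14770 genes, and TMM scaling, 1 quasi-likelihood model with a mean for each group was fitted to the 16 libraries together (12 residual degrees of freedom and a common coefficient of variation of 0.151). P-values were adjusted by Benjamini-Hochberg over all genes tested. The standard error is the log2 change divided by the square root of F, so it restates the test. The procedure was tested on simulated data. Group levels are CPM after TMM scaling. The alternatives were DESeq2 1.42.0, its size factors in edgeR, no filter, the replicate number as a block, the 2 compared groups alone, and each library left out. Groups and replicate numbers came from the sample titles, and the labels give no batch. Replicates of a group differed by far more than counting noise in all 24 pairs (chi-square per gene of 14.52 to 119), and each was kept.

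Every gene that passed the filter was named with values. Of the other pathway genes up to 8 per comparison were chosen, called ones first, by smallest p, and some are also given for another comparison. Fasl and Ngfr are given besides these. Members and lists were chosen with earlier results of these data known, and the counts without genes that passed the filter through Ad-FAT10 livers alone were added after seeing the data. 1 further gene matching the symbol pattern is not reported here.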

Additional observations from a re-analysis of the deposited data

Results flagged for a closer look

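Among 92 sets of 4 libraries (22 genes and Ubd in 4 groups), 4 held a library far from the other 3, and about 1 in 20 such sets is expected to by chance. Tnfsf12 was at 6.33 CPM in Ad-CTRL CMC replicate 4, against 2.87 to 3.19 CPM in the others. Tnfsf15 was at 0 in Ad-CTRL Pema replicate 2, against 0.150 to 0.176 CPM, a gap of 3 or 4 counts. Tnfrsf11a was at 5.16 CPM in Ad-FAT10 Pema replicate 3, against 2.76 to 2.86 CPM. Tnfrsf1b was at 35.6 CPM in Ad-CTRL Pema replicate 1, against 39.3 to 40.0 CPM.

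Tnfrsf8, left out of the tested genes by the filter on low counts, was higher in Ad-FAT10 than in Ad-CTRL livers when no filter was used. Its log2 change was 2.82 under Pema (adjusted p = 0.00428, edgeR) and 3.02 under CMC (adjusted p = 0.00178), and all 4 Ad-FAT10 livers were above all 4 Ad-CTRL livers under each treatment.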

How the results depend on the processing

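No call changed direction under an alternative. When single libraries were left out, 1716 of 1760 results for single members kept their call or lack of one, 32 lost a call and 12 gained one. Of the 22 members, 8 to 12 were called for Ad-FAT10 against Ad-CTRL under Pema (10 with all libraries) and 8 to 13 under CMC (11), 2 to 3 for Pema against CMC in Ad-FAT10 livers (2) and 4 to 6 in Ad-CTRL livers (6), and 0 for the interaction. The filter was applied anew in each fit. Tnfrsf8 passed it in every fit but those without Ad-FAT10 CMC replicate 3 or 4 or Ad-FAT10 Pema replicate 3. Where it passed, it was called for Ad-FAT10 against Ad-CTRL under both treatments. With all libraries Tnfrsf8 reached the filter's level of 0.422 CPM in 3 Ad-FAT10 and 0 Ad-CTRL libraries, so these calls are descriptions. By group, leaving out 1 library gave 2 to 4 ligands for Ad-FAT10 against Ad-CTRL under CMC (2), 0 to 1 receptors for Pema against CMC in Ad-FAT10 livers (0) and 2 to 4 in Ad-CTRL livers (4). For the other pathway genes it gave 10 to 19 for Ad-FAT10 against Ad-CTRL under Pema (17) and 5 to 10 for Pema against CMC in Ad-CTRL livers (9). With no filter on low counts 1 receptor, Tnfrsf12a, was called for Pema against CMC in Ad-FAT10 livers, where its adjusted p was 0.0171. Where a call was lost beyond the effect of fewer libraries, the cause was not tested. For the interaction over all genes, edgeR called 23 genes, DESeq2 119, edgeR with no filter 93 and the replicate block 16.

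Same-numbered libraries did not deviate together (correlations of -0.172 to 0.172 over 24 pairs, 3 over 0.1), so the numbers were not used as pairs. Low correlations cannot exclude shared handling, and the labels do not say what the numbers mark. With the replicate number as a block, the members called were 10 for Ad-FAT10 against Ad-CTRL under Pema, 11 under CMC, 2 for Pema against CMC in Ad-FAT10 livers, 5 in Ad-CTRL livers and 0 for the interaction. The member call that changed was Tnfrsf1a with Pema in Ad-CTRL livers (adjusted p = 0.051).

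Members under about 1 CPM rest on few counts, so changes there were not detectable unless large.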
